A study of Mus musculus with 5 samples.

Results

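Ionotropic and metabotropic glutamate receptor genes and GABA-A receptor subunit genes were read as a single group in a map of Nr1d1 (REV-ERBα) binding in mouse Th1 cells. Genes were chosen by symbol and by the presence of a peak. A gene belonged to the group when its symbol was that of a Gria, Grid, Grik, Grin or Grm receptor gene or of a GABA-A subunit gene and when it was the nearest gene of at least 1 deposited peak. This gave 32 genes of the 12195 gene names that were nearest to a peak. RefSeq holds 45 genes with such symbols, and the other 13 were nearest to no peak. Just inside the rule stood 6 genes with 1 peak in all (Grin3a, Grm4, Grm6, Gabrb1, Gabra6 and Gabrq). Because a peak was needed to enter the group, peak numbers of the 32 genes are given as a description, with no test.

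The cells came from the lymphoid organs of wild-type C57BL/6 mice aged 4 to 6 weeks. Naive CD4 T cells were activated in culture with antibodies to CD3 and CD28. IL-12, IFNγ and an antibody blocking IL-4 directed them towards Th1, and after 3 to 4 days they were fixed with 1% formaldehyde for 30 minutes. There were 3 libraries from the Nr1d1 pull-down, 1 from a mock pull-down with IgG and 1 of input DNA, all from the same kind of wild-type cell. Nothing in the labels says that the 3 came from separate cultures or mice. Since the mock and the input carry the same antibody label as the pull-down, the groups rest on the sample titles. Peaks over the input were deposited for each antibody as a whole, 19586 for Nr1d1 and 17111 for IgG, with no value per library and no read count. The depth behind a peak and the spread between the 3 Nr1d1 libraries are therefore unknown, and peak lists cannot show whether the cells had the markers of Th1 cells. A ChIP peak that overlapped no IgG peak by 1 bp or more is called ChIP-specific here, and 14471 peaks were. All positions are on mm10.

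Glutamate is the main excitatory transmitter of the brain and GABA the main inhibitory one. AMPA, kainate and NMDA receptors are cation channels opened by glutamate. The delta receptors are their relatives with a role in the structure of synapses, and the metabotropic receptors signal through G proteins. GABA-A receptors are chloride channels assembled from subunits of several classes, whose genes lie mostly in clusters. Their use is greatest in neurons, and some of these receptors have also been described in T cells. Nr1d1 is a nuclear receptor of the circadian clock that represses transcription at sites with an AGGTCA core. Many of these receptor genes are very long, and the 45 genes had a median body of 183 kb against 17.1 kb over all protein-coding genes.

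Receptor genes had both Nr1d1 and IgG peaks near them, and several genes with many of one kind also had many of the other. Of the 32 genes, 29 had a ChIP-specific peak assigned to them, 30 any ChIP peak and 25 an IgG peak. A peak is assigned here to the gene with the nearest start site, as in the deposited annotation. Among all 21896 protein-coding genes the shares were 17.5%, 22.0% and 17.0%, but the receptor genes were chosen for having a peak, so nothing is read from the contrast. The group was assigned 131 ChIP peaks, of which 96 were ChIP-specific and 35 lay over an IgG peak, and 128 IgG peaks. Ordered by ChIP-specific peaks, Grin2a led with 13, Gria1 and Grik2 followed with 10 each, and Grm7 had 6. These sat beside 19 IgG peaks at Grin2a, 16 at Gria1, 11 at Grik2 and 9 at Grm7. ChIP-specific peaks outnumbered IgG peaks at 10 genes, IgG peaks outnumbered them at 17, and the numbers were equal at 5.

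**Figure D1:**
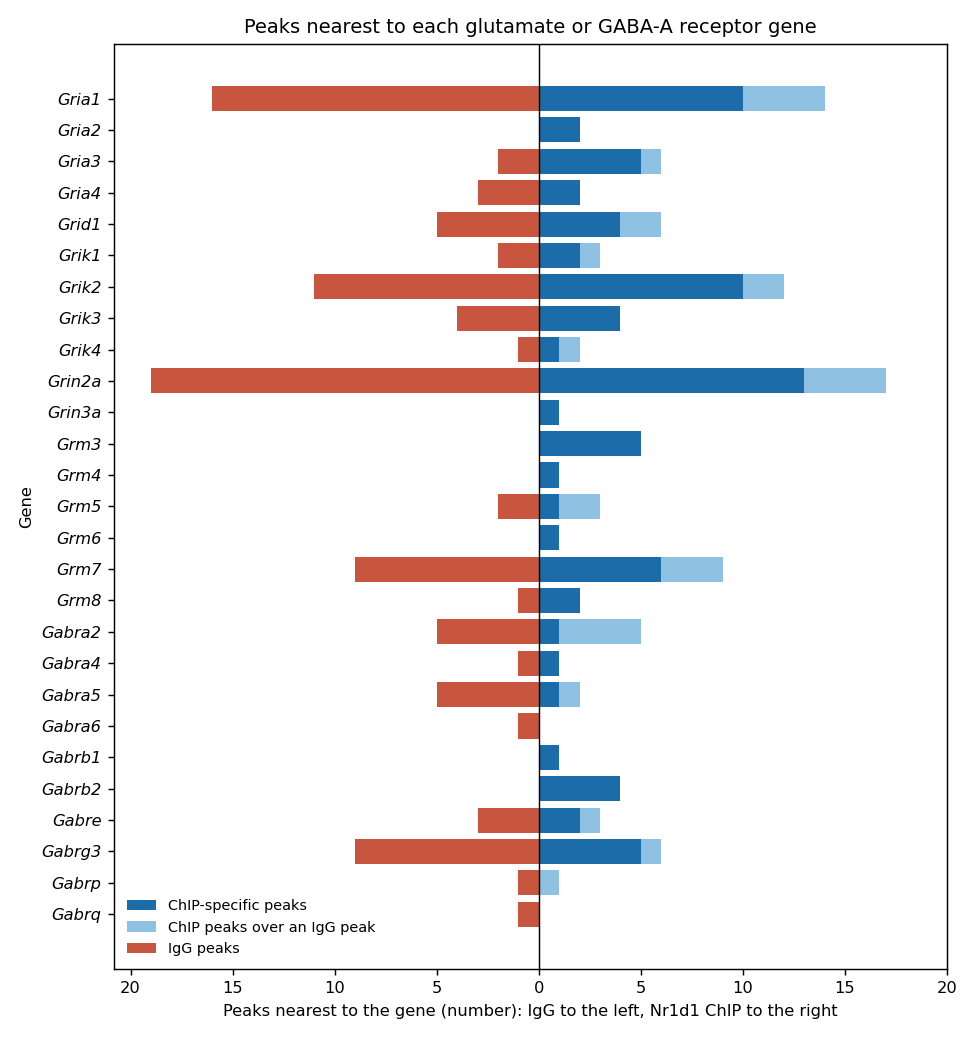
Number of peaks nearest to each receptor gene reported here, with IgG peaks to the left and Nr1d1 ChIP peaks to the right, split into ChIP-specific peaks and ChIP peaks over an IgG peak. Grin2a, Gria1 and Grik2 have long bars on both sides, and Gabra6 and Gabrq have an IgG peak alone.

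With ChIP-specific but no IgG peaks assigned there were 7 members, a state found in 9.51% of protein-coding genes. They were Grm3, Gabrb2, Gria2, Gabrb1, Grin3a, Grm4 and Grm6. Assignment to the nearest start site decided part of this, since 4 of the 7 had IgG peaks inside the gene that were assigned to neighbours. These were Gria2 and Grm3 with 1 each, Grin3a with 2 and Gabrb1 with 3. Gabrb2, Grm4 and Grm6 had no IgG peak in the gene body. Gabra6 and Gabrq, the genes of the α6 and θ subunits of GABA-A receptors, had an IgG peak and lacked any ChIP peak, as did 4.60% of protein-coding genes. The rule itself required a peak, so nothing is read from these shares either.

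Among NMDA receptor genes, Grin2a and Grin3a were members. Grin2a, the gene of a glutamate-binding subunit that rises as synapses mature, had 10 ChIP-specific peaks in introns and 3 in intergenic sequence. The intronic ones lay from 623 to 367183 bp from the nearest annotated start site. The ChIP-specific peak with the lowest FDR was in an intron (chromosome 16, 9798951 to 9799249, FDR 0.00837). The FDR is the deposited false discovery rate of a peak, and every deposited peak had one under 0.05. A further 4 ChIP peaks of Grin2a lay over IgG peaks, among them 1 with an FDR printed as 0 in both lists (9751701 to 9752074 in the ChIP list and 9751701 to 9752049 in the IgG list). Of the 19 IgG peaks 15 overlapped no ChIP peak, which is common, since only 29.9% of all IgG peaks overlapped one. Grin3a, a subunit that lowers calcium entry through NMDA receptors, had 1 ChIP-specific peak, 29606 bp upstream (chromosome 4, 49875276 to 49875424, FDR 0.0246).

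All 4 AMPA receptor genes were members. Gria1, the gene of the GluA1 subunit, had 8 ChIP-specific peaks in introns and 2 in intergenic sequence, 4 ChIP peaks over IgG peaks and 16 IgG peaks. Its ChIP-specific peak with the lowest FDR was intronic (chromosome 11, 57276501 to 57276799, FDR 0.00503). Gria3, on chromosome X, had 2 IgG peaks beside 5 ChIP-specific ones, all 5 in introns. Gria2, the gene of the subunit that makes AMPA receptors impermeable to calcium, had a ChIP-specific peak in an intron (chromosome 3, 80779426 to 80779549, FDR 0.0421). A second lay 18615 bp upstream (80821376 to 80821524, FDR 0.0137). Gria4 had 2 ChIP-specific peaks and 3 IgG peaks, and the ChIP peak in its exon is described with the start sites.

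Of the kainate receptor genes Grik1 to Grik4 were members and Grik5 was not. Grik2, which encodes a pore-forming subunit, had 10 ChIP-specific peaks, but 7 of them were intergenic and lay from 119909 to 336096 bp from a start site. The gene body itself held 4 ChIP-specific and 4 IgG peaks. The ChIP-specific peak with the lowest FDR was intronic (chromosome 10, 49436951 to 49437299, FDR 0.00503). Its strongest ChIP peaks, with FDRs printed as 0, lay 280896 and 304434 bp upstream, each over an IgG peak that also had an FDR of 0. At Grik3 the 4 ChIP-specific peaks were intergenic and upstream, from 23763 to 100975 bp. Grik1 had an exonic ChIP-specific peak (chromosome 16, 87923101 to 87923249, FDR 0.00880). A second, classed as intergenic in the deposited annotation, lay inside the RefSeq gene (88079626 to 88079899, FDR 0.00849). Grik4 had 1 ChIP-specific peak, over an exon 55557 bp upstream of the start site used (chromosome 9, 42999976 to 43000124, FDR 0.0359), which lay outside the RefSeq gene.

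Grid1, a delta receptor gene, is among the longest of the group together with Grm7 and Grm8. By nearest start site it had 4 ChIP-specific and 5 IgG peaks, while its body held 11 and 12.

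Of the metabotropic receptor genes Grm2 was nearest to no peak and the other 7 were members. Grm3, a receptor that lowers cyclic AMP, had 5 ChIP-specific peaks, 4 in introns and 1 in an exon, and its body held 7 ChIP-specific peaks and 1 IgG peak. Of the 4 assigned intronic peaks the one with the lowest FDR was 175 bp long (chromosome 5, 9694576 to 9694749, FDR 0.0168). Grm7, a presynaptic receptor with low affinity for glutamate, had 5 intergenic ChIP-specific peaks, 106619 to 908331 bp upstream, and 1 in an intron. Grm8 had 1 intronic and 1 intergenic ChIP-specific peak. Grm4 had 1, intergenic and 61755 bp downstream of the start site used (chromosome 17, 27411201 to 27411424, FDR 0.0105). That peak lay outside the RefSeq gene (27422387 to 27513826). Grm5 had 1 in an exon, and its 2 other ChIP peaks lay over IgG peaks. Grm6, the receptor through which retinal bipolar cells sense photoreceptor glutamate, had 1, in an exon.

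GABA-A subunit genes had 19 ChIP-specific peaks, 11 ChIP peaks over IgG peaks and 33 IgG peaks, spread over 13 of 19 genes. Most lie in clusters, of which those on chromosomes 5 and X are described here. From the first base of its first subunit gene to the last base of its last, the cluster on chromosome 5 (70751047 to 72149572) held 3 ChIP-specific and 8 IgG peaks, 2.15 and 5.72 per Mb. On chromosome X (72256926 to 72842607) there were 9 of each kind, 15.4 per Mb. These spans include intergenic DNA and other genes. On X, protein-coding gene bodies as a whole held 9.72 ChIP-specific peaks per Mb and 11.6 from IgG, against 5.10 and 5.68 on the autosomes.

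**Figure D2:**
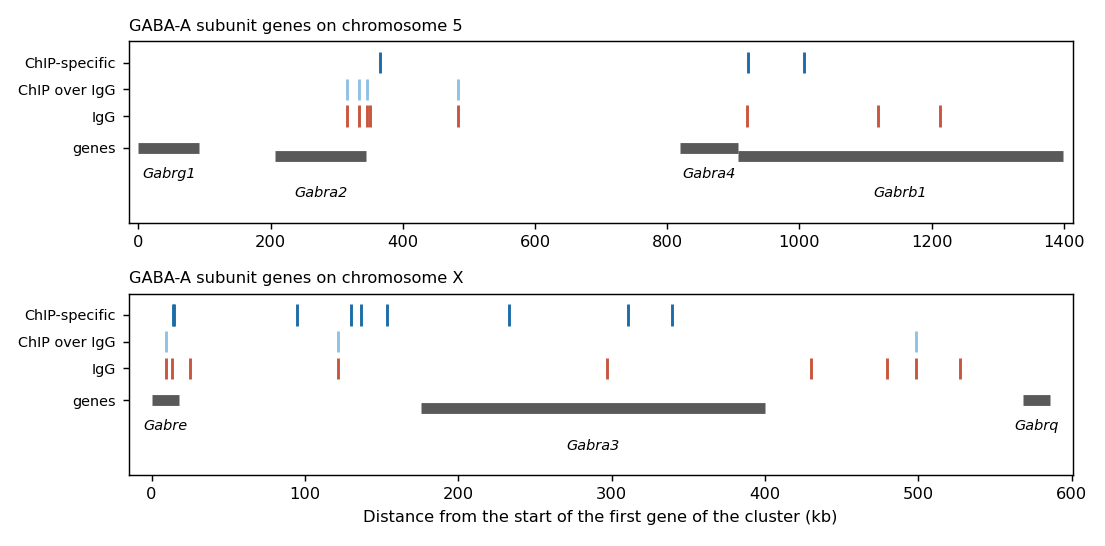
Position of ChIP-specific peaks, ChIP peaks over IgG peaks and IgG peaks in the GABA-A gene clusters on chromosomes 5 and X, in kb from the start of the first gene, with gene bodies as grey bars. ChIP-specific ticks number 3 on chromosome 5 and 9 on chromosome X, beside 8 and 9 IgG ticks.

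On chromosome 7, Gabrg3, the gene of the γ3 subunit, had 5 ChIP-specific peaks, 4 in introns and 1 over an exon (57322901 to 57323024, FDR 0.0222), beside 9 IgG peaks. Gabra5, in the same cluster, had 1 ChIP-specific peak, 1 ChIP peak over an IgG peak and 5 IgG peaks. On chromosome 11, Gabrb2, which encodes a β subunit found in a large share of brain GABA-A receptors, had 4 ChIP-specific peaks. Of these 3 were intronic, and the peak with the lowest FDR lay beyond the gene (42657501 to 42657849, FDR 0.00694). Within the chromosome 5 cluster, 4 of the 5 ChIP peaks of Gabra2 lay over IgG peaks, and the ChIP-specific one was 21301 bp upstream. The ChIP-specific peak assigned to Gabra4 (71673851 to 71673949, FDR 0.0261) lay inside Gabrb1, whose own assigned peak was intronic (71757226 to 71757399, FDR 0.0102). Gabrp, outside the clusters, had 1 ChIP peak, 9541 bp upstream and over an IgG peak.

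Few of these peaks lay at start sites. Of the 96 ChIP-specific peaks 9 lay within 1 kb of a start site, which is 9.38%, beside 9.50% of all ChIP-specific peaks. Of the 128 IgG peaks 14 did, 10.9% beside 9.09% of all IgG peaks. Within 5 kb there were 11 ChIP-specific peaks, 11.5% beside 19.3% of all, and 20 IgG peaks, 15.6% beside 18.2%. By the deposited classes 3 ChIP-specific peaks were at promoters (3.12%, Wilson 95% interval 1.07 to 8.79) and 7 in exons (7.29%, 3.58 to 14.3). Over all ChIP-specific peaks the shares were 5.52% and 4.52%. The intervals cover the counting of peaks only.

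The 9 peaks belonged to 9 genes, of which 8 are described. Grm3 had its peak 127 bp downstream of the start, in an exon (chromosome 5, 9725151 to 9725299, FDR 0.0305), and Gria4 at 259 bp, also in an exon (chromosome 9, 4795851 to 4796099, FDR 0.0190). The nearest IgG peak was 174351 bp away at Grm3 and 18926 bp away at Gria4. The exonic peaks of Grm6 (chromosome 11, 50851426 to 50851549, FDR 0.00597) and Grm5 (chromosome 7, 87603026 to 87603124, FDR 0.0488) were 501 and 531 bp downstream. The Grm5 start used here lies inside the RefSeq gene, whose body begins at 87583981. Near that RefSeq start a ChIP peak (87584201 to 87584599, FDR 0.00332) overlapped an IgG peak (87584276 to 87584574, FDR 0.000934). Grin2a had an intronic peak 623 bp downstream (chromosome 16, 9993551 to 9993724, FDR 0.0165), and Grid1 one at 700 bp (chromosome 14, 34820476 to 34820574, FDR 0.0332). Grid1 had an IgG peak nearer to the same start. The IgG peaks of Grin2a lay 146 and 604 bp from the starts of other transcripts, so these distances are not comparable. Grik2 had a promoter peak 646 bp upstream (chromosome 10, 49789351 to 49789474, FDR 0.0213). This peak and the start used also lay inside the RefSeq gene, whose body runs to 49790161.

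The eighth was Gabre, which encodes the ε subunit. Its promoter peak was the longest of the 96 assigned ChIP-specific peaks, at 650 bp, and had the lowest FDR among them (chromosome X, 72270326 to 72270974, 887 bp upstream, FDR 0.00393). Only 14 of the 14471 ChIP-specific peaks were as long or longer, and 369 had a lower FDR. It lay inside the RefSeq body of Gabre, since the deposited annotation used a transcript that starts within it. The nearest IgG peak was 101 bp away (72269876 to 72270224, FDR 0.0106).

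**Figure D3:**
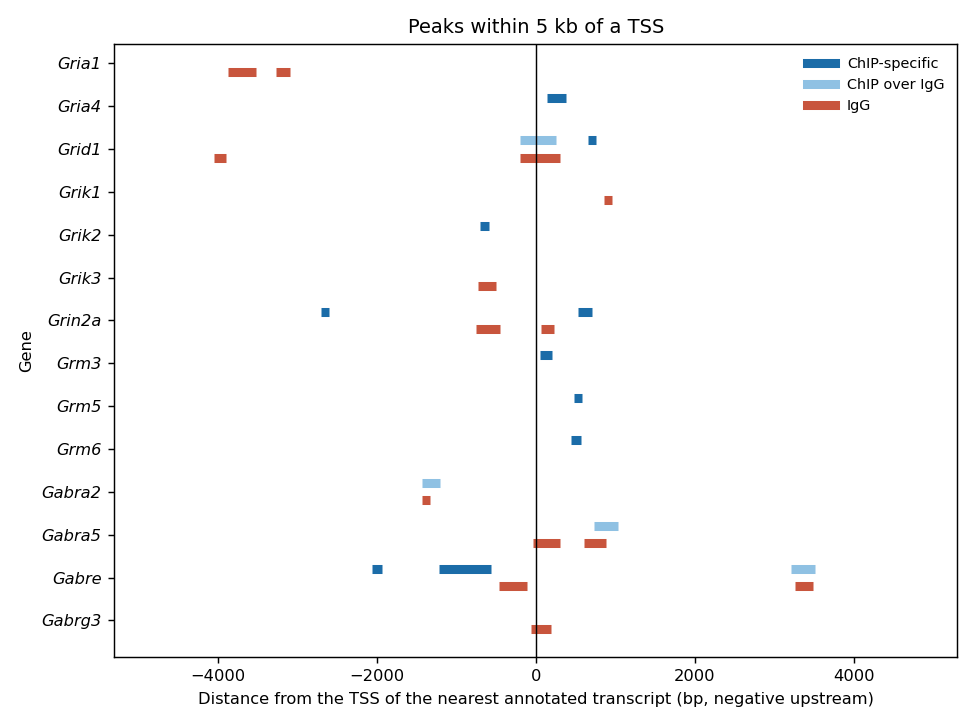
Peaks within 5 kb of the start site of the nearest annotated transcript, drawn to length in bp and placed by the deposited distance, for receptor genes that have one. ChIP peaks are above and IgG peaks below each gene's line. Gria4, Grm3, Grm5, Grm6 and Grik2 show a ChIP-specific peak with no IgG peak in the window. For Grm5 and Grik2 the start used lies inside the RefSeq gene, and at Grm5 overlapping ChIP and IgG peaks lay near the RefSeq start.

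RefSeq promoter sequences, 250 bases before to 50 after a start site, are shown for the genes whose window a peak covered or nearly reached (GRCm38.p6, the build of the files, minus strand for all 4, printed 5′ to 3′). At Gabrg3 (chr7:57387166-57387465) and Gabra5 (chr7:57510010-57510309) an IgG peak and no ChIP peak overlapped the window, over 84 and 40 bases, which are in capitals. Gabra5 did have a ChIP peak over another IgG peak 884 bp downstream of the start (57508976 to 57509274, FDR 0.00837). Its window lies inside the RefSeq body, which runs to 57591016. At Grm3 (chr5:9725303-9725602) the ChIP-specific peak began 3 bases past the window, and at Gria4 (chr9:4796185-4796484) 85 bases past it. There the capitals mark the 50 bases from the start site on, which run towards the peak.
Gabrg3: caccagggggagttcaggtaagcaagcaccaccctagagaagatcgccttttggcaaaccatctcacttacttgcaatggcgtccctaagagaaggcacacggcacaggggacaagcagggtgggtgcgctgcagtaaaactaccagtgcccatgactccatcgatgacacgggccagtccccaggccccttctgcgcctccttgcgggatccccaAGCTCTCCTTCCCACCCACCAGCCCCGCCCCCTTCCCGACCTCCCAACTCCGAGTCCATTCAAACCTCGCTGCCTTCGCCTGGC
Gabra5: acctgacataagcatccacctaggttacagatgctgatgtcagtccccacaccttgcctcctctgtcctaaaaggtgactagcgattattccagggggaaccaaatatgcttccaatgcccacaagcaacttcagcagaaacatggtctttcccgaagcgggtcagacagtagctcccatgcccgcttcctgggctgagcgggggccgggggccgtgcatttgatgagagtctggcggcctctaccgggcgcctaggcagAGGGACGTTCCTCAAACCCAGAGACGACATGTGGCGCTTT
Grm3: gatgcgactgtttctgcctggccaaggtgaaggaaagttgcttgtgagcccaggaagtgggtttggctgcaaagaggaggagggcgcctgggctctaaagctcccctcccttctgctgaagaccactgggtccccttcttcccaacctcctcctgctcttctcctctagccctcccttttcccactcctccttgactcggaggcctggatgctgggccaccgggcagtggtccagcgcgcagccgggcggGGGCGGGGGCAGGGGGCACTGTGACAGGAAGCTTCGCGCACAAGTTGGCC
Gria4: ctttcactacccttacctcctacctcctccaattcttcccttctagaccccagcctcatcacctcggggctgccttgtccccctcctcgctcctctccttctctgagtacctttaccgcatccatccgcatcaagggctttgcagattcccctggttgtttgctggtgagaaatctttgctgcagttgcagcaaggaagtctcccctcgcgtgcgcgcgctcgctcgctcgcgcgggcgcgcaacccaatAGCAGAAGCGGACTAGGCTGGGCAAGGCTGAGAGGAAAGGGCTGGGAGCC
None of the 4 holds the core motif AGGTCA on either strand. RefSeq windows were found for 30 of the 45 genes, 37 windows in all, and 3 of them held AGGTCA on either strand (8.11%, at Gabrr3, Grin2c and Grm8), beside 16.3% of all 32851 windows. Most peaks of the group lay outside these windows, and the sequence under the peaks was not used here.

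At Grid1 peaks of both lists covered the start. These promoter peaks began at the same base (chromosome 14, 34819626 to 34820074 with FDR 0.00503 for ChIP, 34819626 to 34820124 with FDR 0 for IgG). At Grik3, Grin2a and Gabrg3 the peaks classed as promoter came from IgG alone.

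Among the peaks assigned by nearest start site, all 9 ChIP peaks with an FDR printed as 0 overlapped an IgG peak, among them those at Grin2a, Gabra2, Gabrg3 and Grik2. Over the whole ChIP list this held for 90.8% of such peaks, so the group's share was close to that of the list. ChIP-specific peaks with an FDR of 0 that lay inside Grm7 and Grin2b were assigned to other genes and are described with the gene bodies. Of all 131 ChIP peaks 26.7% overlapped an IgG peak (Wilson 95% interval 19.9 to 34.9), beside 26.1% of all annotated ChIP peaks. Where the lists overlapped, the middles of the peaks were a median of 13.0 bp apart, as they were over all overlapping peaks. Of the 35 overlapping peaks 29 had middles within 50 bp, 82.9% beside 89.5% of all overlapping peaks. None of the 96 assigned ChIP-specific peaks had an FDR printed as 0, which allows a share of up to 3.12%, and 1.12% of all ChIP-specific peaks had one. Their median FDR was 0.0158 and their median length 175 bp, beside 0.0146 and 200 bp. An IgG peak lay within 5 kb of 18 of them, 18.8% beside 11.3% of all ChIP-specific peaks.

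Introns held 56.2% (46.3 to 65.7) of the ChIP-specific peaks and 59.4% (50.7 to 67.5) of the IgG peaks of the group. Over all peaks these shares were 30.8% and 29.0%. ChIP-specific peaks lay a median of 65708 bp from a start site and IgG peaks 92271 bp, beside 30846 and 34550 bp over all peaks. These distances include intergenic peaks, which were 33.3% of the ChIP-specific and 32.8% of the IgG peaks of the group. The class is the deposited one, and some intergenic peaks lay inside a RefSeq gene body, as at Grik1 and Gabra5.

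Gene bodies were counted next for all 45 genes, whether or not they had an assigned peak, so that length could be taken into account. They held 105 ChIP-specific peaks in 12.1 Mb, 8.70 per Mb (exact Poisson 95% interval 7.12 to 10.5). All protein-coding gene bodies held 5.30 per Mb. IgG peaks were denser still, at 11.6 per Mb (9.76 to 13.7) beside 5.94 per Mb. Against the other protein-coding genes the ratio was 1.65 for ChIP-specific and 1.98 for IgG peaks, and among genes of 100 kb or more it was 1.51 and 1.68. Within that size class the receptor genes were still the longer ones, with a median body of 395 kb beside 170 kb. With an FDR of 0.01 or less the 45 genes had 2.49 ChIP-specific and 6.63 IgG peaks per Mb, beside 1.89 and 3.32 in the other genes. These are descriptions of 2 lists with 1 input in common, and the difference between them was not tested.

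A ChIP-specific peak was present in the body of 27 of the 45 genes, 60.0%, and an IgG peak in 28, 62.2%. The shares over all protein-coding genes were 13.5% and 12.8%. Among the 25 receptor genes of 100 kb or more they were 92.0% and 96.0%, and among all 2428 protein-coding genes of that size 53.5% and 51.4%. These shares are not matched for length, since the 25 genes had a median body of 395 kb and the 2428 genes one of 172 kb. The 2 long receptor genes without a ChIP-specific body peak were Gabra2 and Grik4, and the 1 without an IgG body peak was Gabrb2. Over the 45 genes the number of body peaks was larger in longer genes, with a Spearman correlation of 0.77 for ChIP-specific and 0.82 for IgG peaks, and the 2 numbers had a correlation of 0.78. The points share the same input library, and genes are not replicates.

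**Figure D4:**
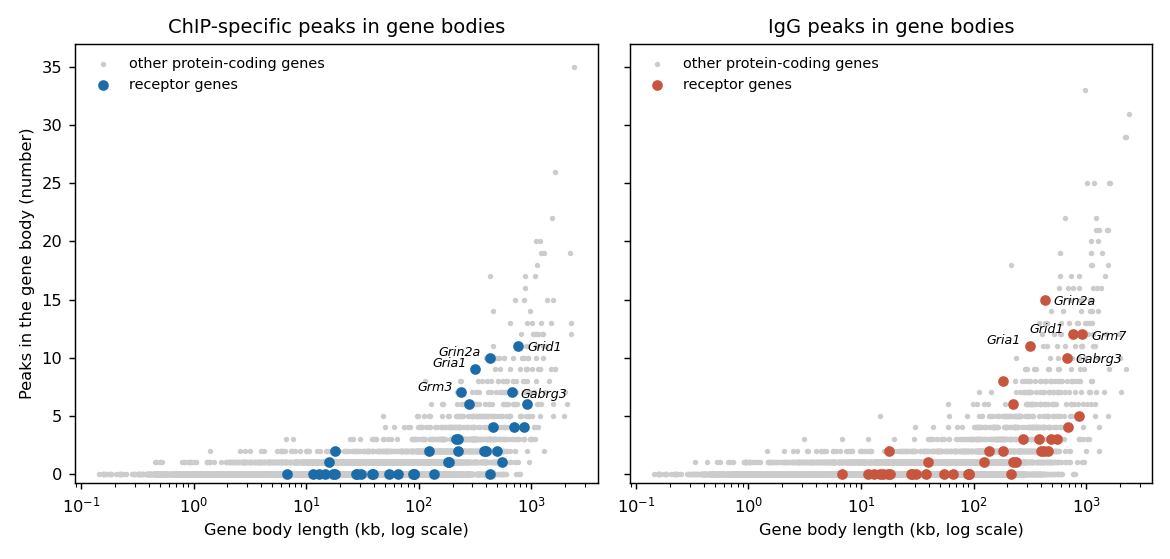
Gene body length in kb on a log scale against the number of ChIP-specific peaks (left) and IgG peaks (right) in the body, for the receptor genes reported here in colour and other protein-coding genes in grey. In both panels the receptor genes with most peaks are long, among them Grin2a with 10 ChIP-specific and 15 IgG peaks and Grid1 with 11 and 12.

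AMPA receptor genes had the highest ChIP-specific density, 17.3 per Mb (exact Poisson 95% interval 10.4 to 27.0), with 16.4 IgG peaks per Mb. NMDA receptor genes had 12.9 (7.20 to 21.2) and 17.2, and GABA-A genes 7.79 (4.82 to 11.9) and 12.6. Metabotropic receptor genes had 6.80 (4.21 to 10.4) and 7.45, and kainate receptor genes 4.42 (1.91 to 8.72) and 7.74. Neighbours in this order had overlapping intervals. The AMPA and NMDA values leaned on 1 gene each. Without Gria1 the AMPA densities were 12.8 and 8.99, and without Grin2a the NMDA densities were 6.78 and 6.78. Of the 10 ChIP-specific peaks then left in AMPA genes 6 were in Gria3, on chromosome X.

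**Figure D5:**
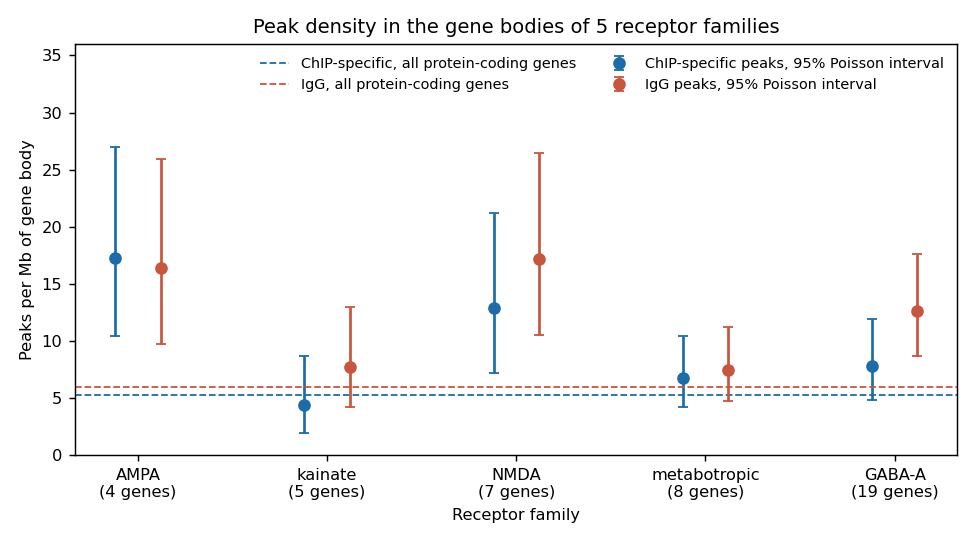
ChIP-specific and IgG peaks per Mb of gene body in 5 receptor families, with exact Poisson 95% intervals, and dashed lines at 5.30 and 5.94 per Mb for all protein-coding genes. The AMPA and NMDA intervals lie above both lines, and those of the kainate and metabotropic genes include them.

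Per gene of 100 kb or more, Grm3 had the highest ChIP-specific density, 29.2 per Mb beside 4.16 IgG peaks per Mb. Gria1 had 28.2 and 34.5 per Mb, Grin2a 23.4 and 35.0, and Gria3 21.6 and 10.8. Gria3 is on chromosome X, where protein-coding bodies as a whole held 9.72 and 11.6 per Mb, against 5.10 and 5.68 on the autosomes. Among those with a ChIP-specific peak Grm5 was lowest, with 1.81 and 5.44 per Mb. Each of these rests on few peaks, 7 at Grm3 and 1 at Grm5.

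Many peaks inside receptor genes had been assigned to other genes. Of the 105 ChIP-specific body peaks 40 were assigned elsewhere, mostly to microRNA or predicted genes inside or beside the receptor gene, and of the 140 IgG body peaks 53 were. Conversely 31 of the 96 assigned ChIP-specific peaks lay outside the body of their gene. In the body of Grid1 all peaks from position 34866876 on were assigned to Mir346 and Gm27617, so 8 of its 11 ChIP-specific body peaks are missing from the count by nearest start site. Grin2b, the gene of the NMDA receptor subunit that prevails early in life, was nearest to no peak and so was no member, but its body held 4 ChIP-specific and 2 IgG peaks. Of these a ChIP-specific peak of 325 bp had an FDR printed as 0 (chromosome 6, 135920451 to 135920774, intron, assigned to RP23-133P12.1). An IgG peak with an FDR printed as 0 lay some kilobases away (135912551 to 135912874). Grm7 likewise held a ChIP-specific intronic peak with an FDR of 0 near its far end (chromosome 6, 111564326 to 111564599, assigned to Gm22093). It also held an IgG peak at its start (110645801 to 110645999, FDR 0), assigned to Gm20387. Gabra3 held 3 ChIP-specific peaks and 1 IgG peak, and Grin2d 1 IgG peak. The other 10 genes that were no members had no peak in the body, and all 10 were shorter than 100 kb: Grin1, Grin2c, Grin3b, Grik5, Grm2, Gabrd, Gabrg1, Gabrr1, Gabrr2 and Gabrr3.

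Genes that work beside these receptors were read in the same way. Of 52 such genes 20 had a ChIP-specific peak assigned, 22 an IgG peak and 12 both. This is 38.5% and 42.3%, beside 17.5% and 17.0% of all protein-coding genes. These shares take no account of length, and some of the 52 are very long, such as Dlg2 (1973 kb) and Dlgap1 (852 kb). Of 15 partners of AMPA receptors 8 had ChIP-specific peaks and 6 had IgG peaks, led by Shisa9, an auxiliary subunit, with 7 and 12. Among 17 scaffold and signalling genes of the excitatory synapse 6 and 10 did, led by Dlgap1 and Dlgap2, scaffolds of the postsynaptic density, with 9 ChIP-specific peaks each and 13 and 11 IgG peaks. Of 12 genes of the GABA synapse 4 and 4 did. Gphn, the gene of the scaffold gephyrin, had 1 ChIP peak, which lay over an IgG peak (chromosome 12, 78350776 to 78351324, FDR 0). Of 6 glutamate transporter genes 2 and 1 did, and of the kainate receptor partners Neto1 and Neto2 0 and 1. Per Mb of gene body the 52 genes had 6.27 ChIP-specific peaks and 8.96 from IgG. All protein-coding gene bodies had 5.30 and 5.94, and those of 100 kb or more 5.96 and 7.12.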

How the data were processed

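Chromatin of mouse Th1 cells was pulled down with an Nr1d1 antibody (3 libraries) or IgG (1) beside input DNA (1). The submitters' processing notes name mm10, BWA and HOMER without versions. How peaks were called and libraries pooled is not given in the sources used here. Peak lists were deposited by the authors with lengths in steps of 25 bp and an FDR (q-value) per peak, all under 0.05, and a HOMER table for each. The score in the tables deposited by the authors equals the peak length for every annotated peak. Positions are those of the HOMER tables, and the deposited length is 1 bp more than they span. No value in the files gives depth.

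A ChIP peak was ChIP-specific with no IgG overlap of 1 bp or more. This matched the deposited list without overlap exactly. Genes came from the deposited annotation. Bodies and promoter sequences came from RefSeq (GRCm38.p6), where all 32 members matched by symbol and 5828 of 12195 deposited names matched a protein-coding gene. A peak was in a body when its middle was. Members, gene lists and settings were chosen with earlier results of these data known. Peaks named by position are those near start sites, the strongest of each list, genes with most peaks and genes without an IgG peak. Some genes that these rules name are not reported here. Further genes, such as Grin2b, Gabra3 and Gphn, were named after their values were seen. The code (Python 3.11.15, numpy 2.4.6, pandas 2.3.3, scipy 1.17.1) was tested on simulated peaks. No test across genes was made, as the lists hold no replicates. Alternatives changed the FDR threshold, the overlap, the gene assignment, the distance limit and the chromosomes.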

Additional observations from a re-analysis of the deposited data

How the results depend on the processing

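Across 9 results and their alternatives, 47 values were compared and 37 stayed within 1.5 times the count, or within the 95% interval of the value, given above. The overlap setting acts on ChIP peaks only, so the IgG counts and density under it could not change and are among the 37. With an FDR of 0.01 or less in both lists, 13 genes had a ChIP-specific peak in place of 29, with 26 peaks in place of 96, and the IgG peaks numbered 72 in place of 128. The share of ChIP peaks over an IgG peak was then 44.7% in place of 26.7%. No share over all ChIP peaks is given at this threshold, so nothing about the group is read from the rise. Over the whole list 90.8% of ChIP peaks with an FDR printed as 0 lay over an IgG peak, beside 26.1% of all. With an FDR of 0.01 or less the densities in member bodies were 2.37 ChIP-specific and 6.92 IgG peaks per Mb, in place of 8.92 and 12.4. Fewer peaks were left by construction. With peaks within 100 kb of a start site, 57 ChIP-specific and 68 IgG peaks remained, at a median of 24407 bp in place of 65708 for the ChIP-specific ones. With peaks in gene bodies widened by 5 kb, 82.4% of ChIP-specific peaks were intronic in place of 56.2%. These settings take out distant peaks or peaks outside genes, so the shorter median and the higher intron share also follow by construction. Settings added after the data were seen gave 8.03 and 10.8 per Mb without the 3 genes that hold most body peaks, and 8.70 and 11.6 per Mb over all 45 genes. No paired analysis was possible because the lists cover each antibody as a whole, and for the same reason no replicate could be left out. The depth is unknown, so a gene without a peak is not shown to lack binding.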
